A study of Mus musculus with 16 samples.

Results

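The 10 genes described here encode enzymes that turn cholesterol into bile acids and join them to an amino acid. They are Cyp7a1, Cyp7b1, Cyp8b1, Cyp27a1, Akr1d1, Akr1c6, Hsd3b7, Baat, Slc27a5 and Amacr, chosen by name from what they are known to do, and they were compared in all 16 liver libraries of the study. All 10 were among the 25006 genes of the deposited table, and all 10 were among the 13180 genes with enough reads to be tested. C57BL/6 mice, an inbred laboratory strain, were given by gavage 1 dose of a slurry of fast food or of chow, after drinking water with or without antibiotics, and the liver was taken 4 h later. The 4 groups of 4 libraries are fast food with antibiotic water, chow with antibiotic water, fast food with control water and chow with control water. The sources used here give neither the antibiotics, their dose and duration, nor the age or sex of the mice, nor the composition of the slurries, and they do not say that each replicate is a separate mouse. Should some share a mouse, the p-values cover variation among libraries only.

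In the classical route of bile acid synthesis, CYP7A1 in the endoplasmic reticulum adds a 7α-hydroxyl group to cholesterol and sets the pace of the pathway, and CYP8B1 adds the 12α-hydroxyl group that makes cholic acid. In the alternative route, mitochondrial CYP27A1 first oxidises the side chain of cholesterol and CYP7B1 then 7α-hydroxylates the resulting oxysterols. Both routes share the enzymes that rework the sterol ring, shorten the side chain in peroxisomes and join the product to taurine or, mainly in other species, glycine. Bile acids that return to the liver, and the gut hormone FGF15, reduce transcription of Cyp7a1 and Cyp8b1 through the receptors FXR and FGFR4 with its partner β-Klotho. Gut bacteria deconjugate and dehydroxylate bile acids, and antibiotics are known to alter the bile acid pool.

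Library totals ran from 8954378 to 18954655 counts. Levels are given as counts per 1000000 counts (CPM) after TMM scaling, which removes differences in library size and composition. In 7 libraries, reads resembling ribosomal RNA made up 2.45% to 8.42% of counts, against 0.12% to 0.587% in the other 9, and all 4 fast food control libraries were among those 9. Those 7 held 8954378 to 15094803 counts and the other 9 held 18102482 to 18954655, so share and depth went together. The summed level of 12 acute phase transcripts was highest in 3 libraries of their groups, fast food antibiotic replicate 2 (49313 CPM, against 10994 to 14448 in the other 3), chow antibiotic replicate 4 (48368, against 24866 to 38275) and chow control replicate 2 (31202, against 16289 to 20576). Below, the 3 libraries of highest acute phase level are these 3, each the highest of its own group. All 3 were also among the 7 libraries of high rRNA-like share and lower depth. Leaving them out changes acute phase level, share and depth together, and these cannot be told apart. In sum, chow antibiotic replicates 1 and 2 (35997 and 38275 CPM) lay above chow control replicate 2 and were kept. Fast food antibiotic replicate 2 stood apart from its group for several genes below. Where leaving it out changed which of the genes below were called, the result without it is given. For some genes the value from all libraries is not printed beside it. The defining hepatocyte transcripts Alb, Ttr, Apoa1, Apob and Fga were abundant in every library, summing to 90914 CPM or more.

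The promoters of Cyp8b1 and Cyp27a1 are shown first because these genes, one from each route, moved in opposite directions in the comparison with most calls. RefSeq promoter windows of build GRCm38.p6 were matched for 5 of the 10 genes (Cyp8b1, Cyp27a1, Akr1d1, Akr1c6 and Hsd3b7). Each printed run is the 250 bases before the RefSeq start, read 5′ to 3′ along the gene, and capitals mark matches to TATAAA in Cyp8b1 and to TTATGNAA, the D-box motif bound by the clock factor DBP, in Cyp27a1. The Cyp8b1 window is chr9:121916306-121916555 on the minus strand, directly upstream of a gene with no intron, and the Cyp27a1 window is chr1:74713285-74713534 on the plus strand.
Cyp8b1: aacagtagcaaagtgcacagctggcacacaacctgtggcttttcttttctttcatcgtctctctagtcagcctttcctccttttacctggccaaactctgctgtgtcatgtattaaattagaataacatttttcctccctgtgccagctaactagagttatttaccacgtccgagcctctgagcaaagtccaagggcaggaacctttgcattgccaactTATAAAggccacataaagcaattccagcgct
Cyp27a1: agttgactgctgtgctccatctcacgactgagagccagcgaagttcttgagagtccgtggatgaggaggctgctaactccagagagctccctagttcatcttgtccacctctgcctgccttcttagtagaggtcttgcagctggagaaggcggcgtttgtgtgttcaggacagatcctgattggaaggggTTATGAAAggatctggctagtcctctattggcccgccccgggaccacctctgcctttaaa
The capitals in Cyp8b1, a TATA box sequence, lie at -31 to -26 from the start, and 12.4% of all 32851 promoter windows of this length hold TATAAA on either strand. The D-box match of Cyp27a1 lies at -60 to -53, and 3.07% of windows hold one. AGGTCA, the half-site of many nuclear receptors, was in neither window on either strand, while 14% of windows hold it and the Akr1d1 window holds it at -232 to -227 and at -210 to -205. No match overlapped another in these windows, and each match describes letters and not a site known to be bound.

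The antibiotic water in mice given chow gave more calls among these genes than any of the other 3 comparisons. Of the 10 genes, 3 were higher (Cyp7b1, Cyp27a1 and Slc27a5) and 3 were lower (Cyp8b1, Hsd3b7 and Amacr) in chow antibiotic livers than in chow control livers. A gene is called where edgeR's quasi-likelihood test, fitted to all genes and libraries, gave a Benjamini-Hochberg adjusted p under 0.05. In that comparison 23.8% of all 13180 tested genes were called (10.6% higher and 13.2% lower). Fast food with antibiotic water, set against chow with antibiotic water, called 1 gene higher (Akr1c6) and 3 lower (Cyp7b1, Cyp27a1 and Baat) of the 10, where 13.7% of all genes were called (7.78% higher and 5.87% lower). A fit to these 2 groups alone called Cyp7b1 (adjusted p = 0.0163) and not Baat (0.0618), Cyp27a1 (0.0702) or Akr1c6 (0.141), with 229 of all genes called. Antibiotic water with fast food, set against control water with fast food, called 2 lower (Akr1c6 and Hsd3b7) and 0 higher, against 5.99% of all genes (3.77% higher and 2.22% lower), and at an unadjusted p under 0.05 it had 4 of the 10. Fast food with control water, set against chow with control water, called Slc27a5 alone as higher and 0 lower, against 0.577% of all genes (0.243% higher and 0.334% lower), with 4 of the 10 at an unadjusted p under 0.05.

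The median log2 fold change of the 10 genes was 0.41 in chow antibiotic against chow control livers, where the median of all tested genes was -0.0057. It was -0.13 for fast food against chow in antibiotic water (all genes 0.032), -0.35 for antibiotic against control water with fast food (all genes 0.018) and 0.37 for fast food against chow in control water (all genes -0.024). With fast food, all 10 had negative fold changes for antibiotic against control water. The comparisons share libraries: chow antibiotic livers enter both the water effect with chow and the meal effect in antibiotic water, so opposite signs in these 2 comparisons are not independent of each other. Overlap of groups is described below for single genes, and how many of all tested genes had groups without overlap was not counted.

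In bulk liver, fewer cells of a type and less RNA per cell cannot be told apart. Of all tested genes, antibiotic water called 10.6% higher and 13.2% lower with chow, and 3.77% and 2.22% with fast food. Fast food called 7.78% higher and 5.87% lower in antibiotic water, and 0.243% and 0.334% in control water. Kupffer cell markers moved with the antibiotic water: 5 of 6 were called lower in chow antibiotic livers (Clec4f, Vsig4, Cd5l, Timd4 and Adgre1) and 4 of 6 in fast food antibiotic livers, and none was at 0 in any library. Their summed level was 114 to 169 CPM in fast food antibiotic livers and 117 to 153 in chow antibiotic livers, against 218 to 302 in fast food control livers and 177 to 539.7 in chow control livers. Of 5 hepatocyte markers, 2 were higher in chow antibiotic livers (Alb and Apoa1), where they summed to 152457 to 219285 CPM, against 105900.0 to 134054 CPM in chow control livers. Pericentral hepatocyte markers, which mark the zone where Cyp7a1 is mainly expressed, had 1 of 7 higher and 2 of 7 lower in chow antibiotic livers and summed to 7298 to 10028 CPM there, against 7639 to 10381 CPM in chow control livers. With fast food they summed to 6411 to 11695 CPM in antibiotic livers, against 12890.4 to 14731 CPM in control livers, with 1 of 7 called lower (Cyp2e1). Stellate cell markers had 3 of 6 lower, sinusoidal endothelial markers 2 of 6 lower, cholangiocyte markers 1 of 5 lower and periportal markers 2 of 6 higher in chow antibiotic against chow control livers. Exocrine pancreas markers summed to 16.7 to 24.9 CPM in chow antibiotic livers, against 4.94 to 8.84 CPM in chow control livers, and 1 of the 2 tested was called higher (Cela2a), while Prss2, Ctrb1, Cpa1 and Pnlip were at 0 in 13 to 15 of the 16 libraries. Cela2a was also called higher in fast food antibiotic than in fast food control livers, where the list summed to 4.58 to 16.7 CPM, against 5.38 to 7.76 CPM. Of 3 neutrophil markers tested, 0 were called between chow antibiotic (2.98 to 75.4 CPM in sum) and chow control livers (1.57 to 9.34 CPM), with 2 at an unadjusted p under 0.05, and Ly6g, Ngp and Camp were at 0 in 9 to 12 of the 16 libraries. Of 12 acute phase transcripts 3 were higher and 1 was lower. Summed acute phase transcripts were 24866 to 48368 CPM in chow antibiotic livers, against 16289 to 31202 CPM in chow control livers. For fast food against chow in antibiotic water the calls were 3 of 5 hepatocyte markers lower (Alb, Ttr and Apoa1), 3 of 12 acute phase transcripts lower (Itih3, Cp and Hamp), 1 of 3 neutrophil markers lower (Retnlg), 3 of 6 stellate cell markers higher (Col1a1, Col3a1 and Rgs5), 2 of 6 sinusoidal endothelial markers higher (Stab1 and Stab2) and 1 of 7 pericentral markers higher (Tbx3). In that comparison hepatocyte markers summed to 90914 to 164961 CPM in fast food livers, against 152457 to 219285 CPM in chow livers, and acute phase transcripts to 10994 to 49313 CPM, against 24866 to 48368 CPM. Fast food in control water called 1 of 7 pericentral markers higher (Rhbg), and antibiotic water with fast food 1 of 5 cholangiocyte markers lower (Krt19) and 1 of 6 periportal markers higher (Sds). The part of these in the changes of the 10 genes was not tested.

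**Figure D1:**
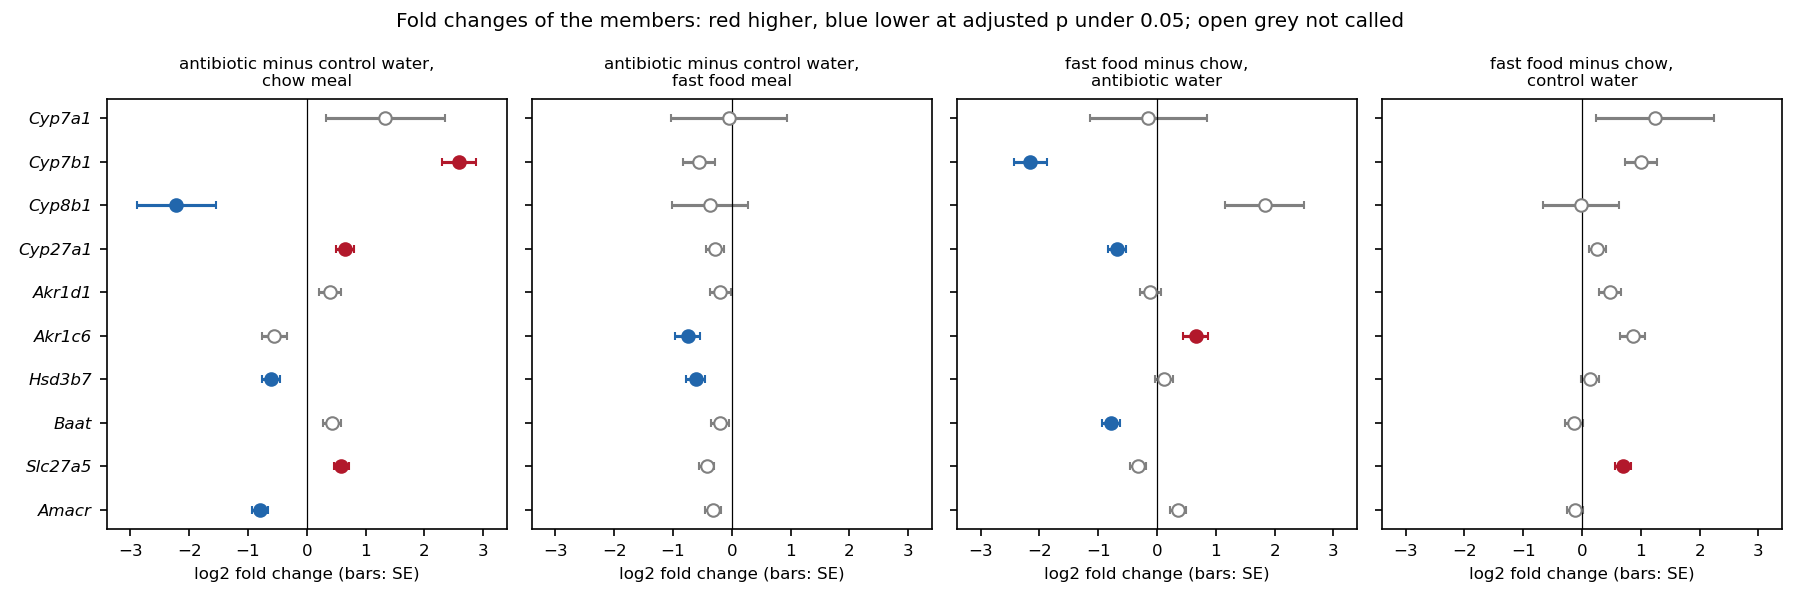
Log2 fold changes with their SE for the 10 genes (rows) in 4 comparisons (panels), where points right of 0 were higher in the first-named group. Filled red points were called higher, filled blue points lower and open grey points were not called. Cyp7b1 is at 2.59 in the first panel and -2.16 in the third, with Cyp8b1 at -2.22 and 1.83, while the second panel holds points left of 0 for all 10.

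Cyp7b1, the oxysterol 7α-hydroxylase of the alternative route, had the largest fold change of the 10 over the 4 comparisons. On GRCm38 it lies on the minus strand at chr3:18071950-18243338. It had 355, 806, 697 and 422 CPM in the 4 chow antibiotic libraries, against 112, 70.4, 92.7 and 102 CPM in the chow control libraries. Every chow antibiotic library lay above every library of the other 3 groups. The log2 fold change for antibiotic against control water with chow was 2.59 ± 0.29 (SE, edgeR adjusted p = 4.22e-05), or 6.04-fold.

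With fast food the Cyp7b1 level was below that of every chow antibiotic library in both waters, 119, 106, 157 and 130.0 CPM in antibiotic livers, against 295, 156, 167 and 135 CPM in control livers. These groups overlapped and the difference did not pass (-0.56 ± 0.27, adjusted p = 0.207). Within antibiotic water Cyp7b1 averaged 128 ± 21.7 CPM in fast food livers and 569.9 ± 216 CPM in chow livers (SD, n = 4 each), and the fall passed the test (-2.16 ± 0.28 on the log2 scale, edgeR adjusted p = 0.000695). Within control water it averaged 188 ± 72.4 CPM in fast food livers and 94.4 ± 17.9 CPM in chow livers, with no overlap of the libraries, but this difference did not pass (1.00 ± 0.27, adjusted p = 0.124). DESeq2 called it (adjusted p = 0.0173). The meal effect thus had opposite signs in the 2 waters, and the interaction passed (-3.15 ± 0.39, edgeR adjusted p = 0.00199), with and without each library in turn (-3.37 to -2.85).

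Cyp27a1, the mitochondrial sterol 27-hydroxylase that opens the alternative route, was called in the same 2 comparisons and the interaction, with the same signs and smaller fold changes. It lies on the plus strand at chr1:74713574-74737892. It had 572, 619, 649 and 563 CPM in chow antibiotic livers, against 365, 383, 395 and 389 CPM in chow control livers. The groups did not overlap and the rise was 0.65 ± 0.15 on the log2 scale (edgeR adjusted p = 0.00505). After fast food the levels were 446, 404, 409 and 243 CPM in antibiotic livers, against 506, 470.4, 466 and 395 CPM in control livers, and the difference did not pass (-0.29 ± 0.15, adjusted p = 0.226). Cyp27a1 was lower after fast food than after chow in antibiotic water (-0.68 ± 0.15, edgeR adjusted p = 0.00958), and not detectably in control water, where the fold change was 0.26 ± 0.15 (adjusted p = 0.542). The interaction passed (-0.94 ± 0.21, edgeR adjusted p = 0.0231). It was lost without chow control replicate 1 (adjusted p = 0.0556) and without fast food control replicates 1, 2 and 3 (0.0525, 0.0501 and 0.0521), and with the share of rRNA-like reads as a covariate (0.0628) or a split term (0.0592).

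Across the 16 libraries log2 CPM of Cyp7b1 and Cyp27a1 had a Pearson r of 0.79, a description over libraries that share groups and depth.

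**Figure D2:**
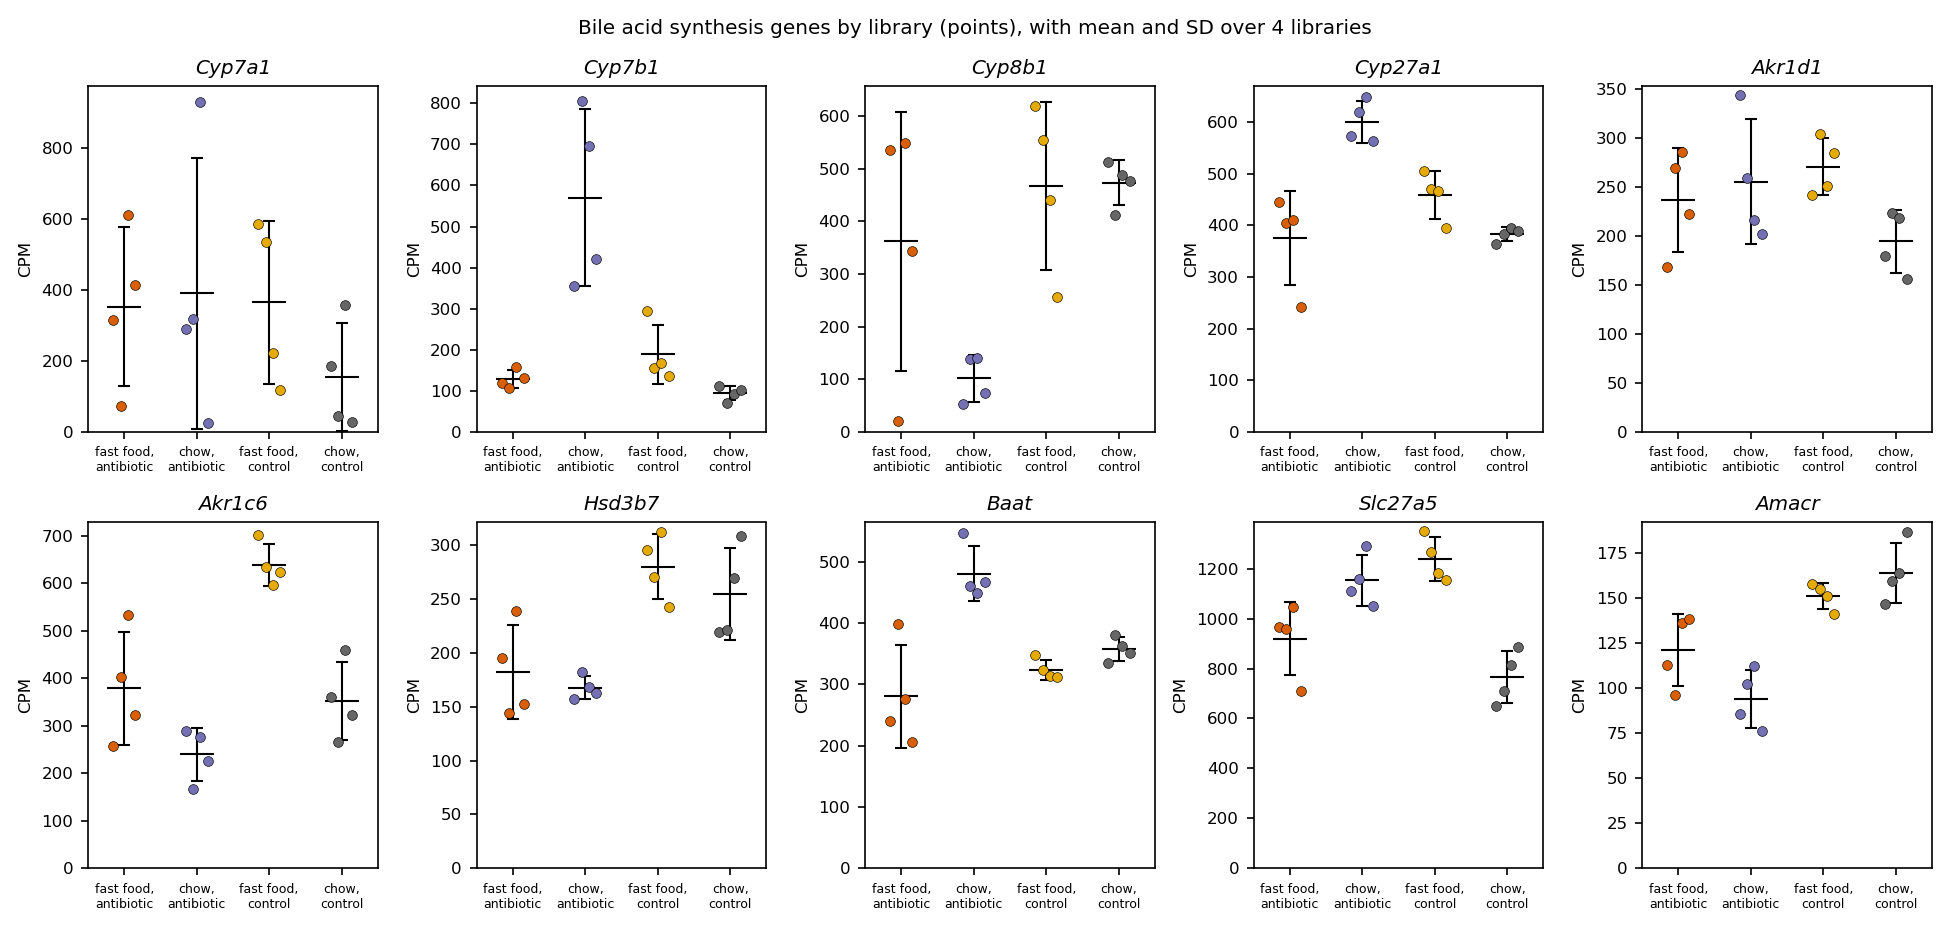
CPM of each of the 10 genes (vertical axes, starting at 0) in the 4 groups (horizontal axes), with 1 point per library, the mean as a bar and the SD as whiskers. Chow antibiotic livers are highest for Cyp7b1 (569.9 ± 216 CPM), Cyp27a1 (601 ± 40.7) and Baat (481 ± 44.7) and lowest for Cyp8b1 (102 ± 44.5), while Cyp7a1 spreads widely in all 4 groups.

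Cyp8b1, the sterol 12α-hydroxylase of the classical route, went the other way in chow-fed mice. It lies on the minus strand at chr9:121914356-121916305. It had 53.2, 139, 140.2 and 74.7 CPM in chow antibiotic livers, against 514, 413, 488 and 477 CPM in chow control livers, so that all 4 antibiotic libraries were well below all 4 controls. The fall was 4.65-fold (-2.22 ± 0.68 on the log2 scale, edgeR adjusted p = 0.0308). The call was narrow, although the value stayed between -2.41 and -1.98 whichever library was left out. It was lost without chow control replicates 1, 3 and 4 (adjusted p = 0.0588, 0.0605 and 0.0602) and without replicates 1, 2 and 4 of the chow antibiotic group (0.0798, 0.0501 and 0.0774), and when genes with few counts were not filtered out (0.053).

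After fast food, Cyp8b1 had 536, 21, 548 and 344 CPM in antibiotic livers, against 619.6, 554, 440.5 and 256 CPM in control livers. Replicate 2 of the fast food antibiotic group was the lowest of all 16 libraries, and the other 3 lay within the range of the fast food control group. The meal effect in antibiotic water was 1.83 ± 0.67 and did not pass in edgeR with all libraries (adjusted p = 0.0835), while DESeq2 called it (1.81, adjusted p = 0.0336). Without fast food antibiotic replicate 2 it was 2.22 and passed (edgeR adjusted p = 0.000659), and the interaction also passed without it (2.23, adjusted p = 0.00837, against 1.85 ± 0.92 and 0.273 with all libraries). Without the 3 libraries of highest acute phase level the meal effect was 2.07 and also passed (0.0041). In control water the meal made no detectable difference to Cyp8b1 (-0.016 ± 0.64, adjusted p = 0.995).

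Cyp7a1, the 7α-hydroxylase that is rate-limiting for the classical route, lies on the minus strand at chr4:6265612-6275633 and had the largest SE of the 10 in each comparison. It had 314, 73.8, 609.6 and 414 CPM in fast food antibiotic livers and 290.3, 317, 927 and 24.3 CPM in chow antibiotic livers. It had 585, 534, 223 and 118 CPM in fast food control livers and 187, 43.8, 358 and 28.6 CPM in chow control livers. The 4 groups overlapped one another, and the libraries of each chow group spanned more than an order of magnitude. Fold changes were 1.34 ± 1.01 for the water with chow (adjusted p = 0.364), -0.048 ± 0.99 for the water with fast food (0.983), -0.14 ± 0.99 for fast food in antibiotic water (0.941) and 1.24 ± 1.01 for fast food in control water (0.713). The SE of each of these was about 1 on the log2 scale. With 4 libraries a group even 1.34 and 1.24 were not called, so the lack of a call does not exclude changes of that size.

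The balance of the routes was described as the mean log2 CPM of Cyp7a1 and Cyp8b1 minus that of Cyp27a1 and Cyp7b1. It was -1.86, -1.75, -0.90 and -3.51 in chow antibiotic livers, against 0.61, -0.29, 1.12 and -0.77 in chow control livers, so all 4 antibiotic libraries lay below all 4 controls. The group means were -2.01 ± 1.09 and 0.17 ± 0.86 (SD, n = 4 each). After fast food the values were 0.83, -2.39, 1.19 and 1.09 in antibiotic livers, against 0.64, 1.00, 0.17 and -0.41 in control livers, where 3 of the 4 antibiotic libraries lay within or above the control range and replicate 2 lay far below it.

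The balance had 2 components of different kinds. Cyp8b1 minus Cyp27a1 averaged -2.68 ± 0.61 in chow antibiotic livers and 0.30 ± 0.16 in chow control livers, with no overlap. Cyp7a1 minus Cyp7b1, the pair of 7α-hydroxylases, averaged -1.33 ± 1.99 in chow antibiotic livers and 0.040 ± 1.65 in chow control livers, and the groups overlapped. Of the classical genes, Cyp8b1 and Cyp7a1 had an r of 0.28 over the 16 libraries, and in chow antibiotic livers the fitted change of Cyp8b1 was negative and that of Cyp7a1 positive. As a score over members chosen by name, the balance was given no test.

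**Figure D3:**
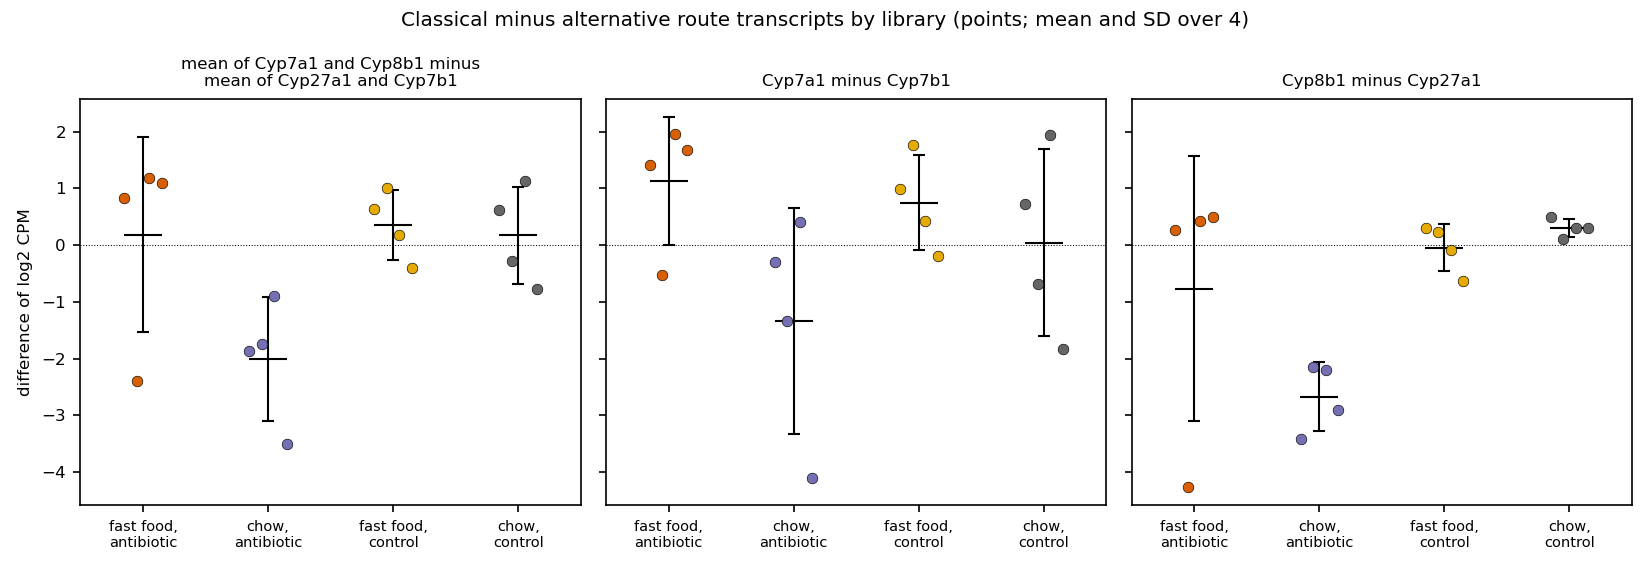
Difference of log2 CPM between classical and alternative route genes (vertical axis) in each library (points) of the 4 groups, with mean and SD, for the 4 genes together and for 2 pairs. Chow antibiotic livers sit lowest on average in all 3 panels, and fast food antibiotic replicate 2 lies at -2.39 for the 4 genes and -4.26 for Cyp8b1 minus Cyp27a1.

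Levels can be compared between genes once divided by exon length (CPM per kilobase of the union of GENCODE M21 exons). Slc27a5 had the highest level per kilobase of the 10 in all 4 groups, 473 ± 42 in chow antibiotic livers and 314 ± 43.1 in chow control livers. In chow control livers Cyp8b1 came next (242 ± 22), followed by Baat (184 ± 9.95), Cyp27a1 (176 ± 6.09) and Akr1c6 (173 ± 40.5), which differed from one another by less than the SD of Akr1c6. Cyp7b1 (43.6 ± 8.28) and Cyp7a1 (36.9 ± 36.7) were last. In chow antibiotic livers Cyp27a1 (277 ± 18.7), Cyp7b1 (263 ± 99.5) and Baat (248 ± 23) followed Slc27a5 and lay within the SD of Cyp7b1, and Cyp8b1 (52.2 ± 22.8) came ahead of Amacr alone. In the order of levels Cyp7b1 was thus in the third place in chow antibiotic livers and in the ninth in the other 3 groups. Cyp8b1 was in the ninth place in chow antibiotic livers, in the third in both fast food groups and in the second in chow control livers.

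The ring-modifying enzymes had smaller fold changes than Cyp7b1 and Cyp8b1 for antibiotic against control water with chow. Hsd3b7, the microsomal 3β-hydroxysteroid dehydrogenase that follows 7α-hydroxylation in both routes, lies at chr7:127800604-127803802 on the plus strand and was lower in antibiotic water with either meal. It had 157, 182, 168 and 163 CPM in chow antibiotic livers, against 219.5, 221, 269 and 308 CPM in chow control livers (-0.60 ± 0.15, edgeR adjusted p = 0.00992). It had 195, 144, 239 and 152 CPM in fast food antibiotic livers, against 295, 271, 312 and 242 CPM in fast food control livers (-0.62 ± 0.15, adjusted p = 0.0322). Neither pair of groups overlapped. The call with fast food was lost without any of fast food control replicates 1, 2 and 3 (adjusted p = 0.0915, 0.0713 and 0.0982) and without replicate 2 or 4 of the fast food antibiotic group (0.0705 and 0.0893). The meal effects on Hsd3b7 were 0.12 ± 0.15 in antibiotic water and 0.14 ± 0.15 in control water, and neither passed.

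Akr1d1, the Δ4-3-oxosteroid 5β-reductase that bends the ring system (chr6:37530173-37568815, plus strand), was not called in any of the 4 comparisons. Its libraries ran from 168 to 286 CPM in fast food antibiotic livers, 202 to 344 in chow antibiotic livers, 242 to 305 in fast food control livers and 156 to 223 in chow control livers. The fast food and chow libraries in control water did not overlap, with a fold change of 0.48 ± 0.18 that did not pass (adjusted p = 0.308). Without the 3 libraries of highest acute phase level Akr1d1 was called higher in chow antibiotic than in chow control livers (0.59, edgeR adjusted p = 0.0317, against 0.39 ± 0.18 and 0.13 with all libraries).

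Akr1c6, a hepatic aldo-keto reductase (the human enzyme for the 3-oxo step in bile acid synthesis is AKR1C4), lies at chr13:4434306-4457877 on the plus strand, among near-identical Akr1c genes whose reads may not be fully separable. It had 258, 403, 533 and 323 CPM in fast food antibiotic livers and 288, 167, 277 and 227 CPM in chow antibiotic livers. It had 701, 633, 597 and 624 CPM in fast food control livers and 359.6, 265, 460.4 and 322 CPM in chow control livers. Fast food control livers were above the other 3 groups with no overlap. The fall in antibiotic against control water with fast food (-0.75 ± 0.21, edgeR adjusted p = 0.0478) and the meal-related rise in antibiotic water (0.66 ± 0.21, adjusted p = 0.0492) both passed narrowly. The call of the fall held only when the library left out was number 2 or 3 of chow control, 1, 2 or 4 of chow antibiotic or 3 of fast food antibiotic livers, and the adjusted p was 0.0501 to 0.126 without any of the other 10. It was also lost without the count filter (0.0562) and without the 3 libraries of highest acute phase level (0.0505). The call of the rise held only when the library left out was number 2 or 3 of chow control or 1 of fast food antibiotic livers, with an adjusted p of 0.0508 to 0.18 without any of the other 13. The rise was also not called with RLE scaling (0.053), without the count filter (0.0672) or without the 3 libraries of highest acute phase level (0.106). In control water the higher level after fast food did not pass in the fit to all groups (0.86 ± 0.21, adjusted p = 0.0856). It passed with DESeq2 (0.00934), in a fit to the 2 groups (0.00988) and among libraries of low rRNA-like share (0.0407). In chow antibiotic against chow control livers it was -0.55 ± 0.21 (adjusted p = 0.0702, not called). That difference was called without chow control replicate 2 (-0.67, 0.0381), without fast food antibiotic replicate 3 (0.0454) and with rRNA-like reads entered as a covariate (0.0441) or split term (0.0158).

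Amacr, the racemase that prepares the side chain for peroxisomal shortening (chr15:10981756-10996626, plus strand), had 85.4, 102, 112 and 76.4 CPM in chow antibiotic livers, against 146, 159.7, 164 and 186 CPM in chow control livers. The groups were well separated and the fall was -0.80 ± 0.14 (edgeR adjusted p = 0.00065), a call that held without each library in turn. After fast food it had 113, 96.4, 136 and 138 CPM in antibiotic livers, against 158, 155, 151 and 141 CPM in control livers, again without overlap, but the difference did not pass (-0.32 ± 0.13, adjusted p = 0.142). The meal effect in antibiotic water was 0.36 ± 0.13 (adjusted p = 0.0814), and it was called without fast food antibiotic replicate 2 (0.45, 0.0189) and without replicate 3 of the chow antibiotic group (0.46, 0.0459), and with the rRNA-like share as a split term (0.41, 0.0418).

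Slc27a5 encodes the bile acid CoA ligase BACS (FATP5), which activates bile acids for conjugation, and lies at chr7:12988346-12998192 on the minus strand. It had 965, 957, 1048 and 709.6 CPM in fast food antibiotic livers and 1111, 1157, 1292 and 1051 CPM in chow antibiotic livers. It had 1349.7, 1268, 1181 and 1154 CPM in fast food control livers and 651, 711, 813 and 888 CPM in chow control livers. Both the fast food control and the chow antibiotic group lay above chow control with no overlap: the rise with antibiotic water after chow was 0.59 ± 0.13 (edgeR adjusted p = 0.00473) and the rise with fast food in control water was 0.69 ± 0.13 (0.0271). The meal call in control water was lost without chow control replicates 1, 2 and 3 (adjusted p = 0.104, 0.0979 and 0.0576) and without fast food control replicates 1 to 4 (0.0698 to 0.103). In antibiotic water the fast food libraries lay below the chow libraries (-0.33 ± 0.13), which did not pass (adjusted p = 0.11). With fast food, the antibiotic libraries lay below the control libraries with no overlap, and the difference did not pass in edgeR (-0.43 ± 0.13, adjusted p = 0.0631). DESeq2 called it (-0.44, 0.0157), and so did edgeR without fast food antibiotic replicate 3 (-0.50, 0.0461). The interaction passed (-1.02 ± 0.19, edgeR adjusted p = 0.00934) with all libraries and without each in turn.

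Baat, the acyltransferase that joins activated bile acids to taurine in mice (chr4:49489422-49506557, minus strand), was highest in chow antibiotic livers. It had 240.2, 398, 276 and 207 CPM in fast food antibiotic livers, against 547, 460.2, 449 and 467 CPM in chow antibiotic livers, with no overlap, and the fall passed (-0.78 ± 0.15, edgeR adjusted p = 0.00624). In control water it had 347, 324, 314 and 312 CPM after fast food, against 335, 381, 363 and 351 CPM after chow, with overlap (-0.14 ± 0.15, adjusted p = 0.803). The difference between chow antibiotic and chow control livers had no overlap and lay at the threshold (0.43 ± 0.15, adjusted p = 0.0519). It was called by DESeq2 (0.0255), with RLE scaling (0.0437), in a fit to the 2 groups (0.0157), with rRNA-like reads as a covariate (0.0364), without the 3 libraries of highest acute phase level (0.00572), and without replicate 2 (0.00506) or replicate 4 of the fast food antibiotic group (0.0307). With fast food the fold change for antibiotic against control water was -0.21 ± 0.15 (adjusted p = 0.407, not called). It was called without fast food antibiotic replicate 2 (-0.44, 0.0477) and without the 3 libraries of highest acute phase level (-0.45, 0.0292). The interaction for Baat was -0.64 ± 0.22 (edgeR adjusted p = 0.0989, not called), and it passed with DESeq2 (-0.67, 0.0413) and without fast food antibiotic replicate 2 (-0.87, 0.00182).

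Tests of the interaction called 3 of the 10 genes (Cyp7b1, Cyp27a1 and Slc27a5), all with a meal effect that was more negative in antibiotic water, where 3.94% of all genes were called (2.36% positive and 1.58% negative). Without fast food antibiotic replicate 2 it called 6 of the 10, adding Amacr (adjusted p = 0.0492), Baat and Cyp8b1. Of all 13358 genes then tested, the interaction called 1494, against 519 with all libraries. Leaving out the 3 libraries of highest acute phase level, it also called 6, with Akr1d1 (-0.87, 0.039) in place of Amacr. Of all 13253 genes tested in that setting, 1851 were called.

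The share of rRNA-like reads differed between libraries of the same group, so fold changes were also taken among libraries on 1 side of 1%. The high-share libraries were also those with the lowest totals, so share and depth could not be told apart. Antibiotic against control water with chow could be taken on both sides, with 2 libraries a group on each. Cyp7b1 was 2.43 among low-share and 2.77 among high-share libraries, Cyp8b1 -2.33 and -2.09, and Cyp27a1 0.63 and 0.68. All 10 genes had the same sign on both sides as with all libraries. Low-share libraries called 8 of the 10, where edgeR called 3319 of all 13203 genes tested. High-share libraries called 0 of the 10, where edgeR called 3 of all 12339 genes tested. Fast food against chow in antibiotic water could be taken among high-share libraries (3 against 2), where Cyp7b1 was -2.41, Cyp27a1 -0.72 and Baat -0.74, with 0 of the 10 called. Fast food against chow in control water, among low-share libraries (4 against 2), gave Slc27a5 0.54 (adjusted p = 0.0643). In that setting edgeR called Akr1c6 higher (0.70, adjusted p = 0.0407). With the share as a covariate the calls of Slc27a5 for the meal in control water (adjusted p = 0.0527) and of Hsd3b7 and Akr1c6 for the water with fast food (0.157 and 0.188) were lost. The water effect with fast food could not be taken on either side, since all 4 fast food control libraries and only 1 fast food antibiotic library had a low share. For that comparison edgeR called 15 of all tested genes with the covariate and 0 with the split at 1% as a model term, against 790 without either.

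Other genes of the pathway were read from 3 lists, and libraries of high rRNA-like share alone (2 against 2 or 3 against 2) called 0 genes of any of them in edgeR for the water with chow or for fast food in antibiotic water, with at most 6 of a list at an unadjusted p under 0.05. Of 11 further enzymes, 10 were tested, and in chow antibiotic against chow control livers 2 were higher and 5 lower. Of all tested genes, 10.6% were called higher and 13.2% lower there. Cyp39a1, which 7α-hydroxylates 24-hydroxycholesterol in a side branch, had 310.1, 257, 242 and 276 CPM in chow antibiotic livers, against 71.7, 62.5, 64.4 and 55.7 CPM in chow control livers, and rose by 2.09 ± 0.26 (edgeR adjusted p = 9.19e-05). Cyp2c70, the mouse 6β-hydroxylase that leads to muricholic acids, had 1486, 1135, 1085 and 960.3 CPM in chow antibiotic livers, against 35.6, 53.6, 45 and 50.2 CPM in chow control livers. Its rise was 25.3-fold (4.66 ± 0.88, adjusted p = 0.00259), though reads of Cyp2c paralogs may not be fully separable. After fast food Cyp2c70 had 90.8, 1287, 133 and 52.4 CPM in antibiotic livers, against 108, 97.2, 57.1 and 74.7 CPM in control livers, where replicate 2 of the antibiotic group alone was at the level of chow antibiotic livers (2.21 ± 0.79, adjusted p = 0.105, and 0.12 ± 0.27, 0.84, without that library).

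The 5 lower genes of that list were Hsd17b4 (-0.91 ± 0.14), a peroxisomal bifunctional enzyme of side-chain shortening, the peroxisomal thioesterase gene Acot8 (-1.52 ± 0.21), the peroxisomal importer gene Abcd3 (-1.19 ± 0.19), the acyl-CoA synthetase gene Slc27a2 (-0.53 ± 0.18) and Cyp46a1 (-1.76 ± 0.55), a mainly neuronal 24-hydroxylase with at most 21 counts in a library. Hsd17b4, Acot8 and Abcd3 kept their calls whichever library was left out. The call of Slc27a2 was lost without replicates 1, 3 and 4 of chow control, 1 and 2 of chow antibiotic or 3 of fast food control livers (adjusted p up to 0.127), and that of Cyp46a1 without replicates 1 and 3 of chow control or 2 and 4 of chow antibiotic livers (up to 0.076). Acox2 (-0.052 ± 0.11) and Scp2 (-0.24 ± 0.20), which act in the same peroxisomal steps, were not called. Fast food in antibiotic water called 2 of the 10 with all libraries, Cyp39a1 lower (-0.94 ± 0.25, adjusted p = 0.0247) and Acot8 higher (0.84 ± 0.21, 0.0162). The Cyp39a1 call was lost without fast food antibiotic replicates 1, 3 and 4 (adjusted p up to 0.0754), and without replicate 2 its fold change was -1.42, while the Acot8 call was lost without fast food antibiotic replicate 3 (0.063) or chow antibiotic replicate 1. A fit to the 2 groups called 0 of the 10 and DESeq2 3, adding Abcd3. Without fast food antibiotic replicate 2 the count was 5, with 3 higher and 2 lower, adding Cyp2c70 as lower (-3.67, 6.8e-06, against -1.58 ± 0.78 and 0.191 with all libraries) and Hsd17b4 (0.48, 0.0122) and Abcd3 (0.75, 0.00337) as higher. It was also 5 without the 3 libraries of highest acute phase level. Of all genes, 3042 of 13358 were called without fast food antibiotic replicate 2 and 3206 of 13253 without those 3 libraries. With all libraries the number was 1800. With fast food, antibiotic water called Cyp39a1 higher (0.99 ± 0.25, 0.0349) and Cyp2a12, a mouse bile acid 7α-rehydroxylase, lower (-0.45 ± 0.13, 0.0452). The Cyp39a1 call was lost without any 1 of the 4 fast food control libraries (up to 0.0918), and its fold change was 0.50 without fast food antibiotic replicate 2. The Cyp2a12 call was lost without any of 9 libraries (up to 0.115), namely chow control replicate 1, fast food control replicates 1 to 4, replicate 3 of chow antibiotic and replicates 1, 2 and 4 of fast food antibiotic livers. Leaving out fast food antibiotic replicate 2, Cyp39a1 was the 1 call of that comparison (0.0309), without replicate 3 there were 4, and DESeq2 made 5 calls with all libraries. Of all genes, 378, 933 and 1547 were called in these settings, in that order. The count among the further enzymes was 0 without the count filter, with rRNA-like reads as a covariate or split term, and without any of the 4 fast food control libraries. Fast food in control water called 0 of these 10 by edgeR or DESeq2, with 1 at an unadjusted p under 0.05, and 1 in a fit to the 2 groups.

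The interaction called 0 of the 10 further enzymes in edgeR with all libraries, with 6 at an unadjusted p under 0.05, and 3 by DESeq2. Without fast food antibiotic replicate 2 it called 6, of which Acot8 (1.04, 0.0155), Hsd17b4 (0.66, 0.0221) and Abcd3 (0.81, 0.0237) had a positive difference. Cyp2c70 (-4.54, 3.6e-05), Cyp39a1 (-1.60, 3.6e-05) and Cyp2a12 (-0.65, 0.0328) had a negative one. Without the 3 libraries of highest acute phase level it again called 6. Of all genes, the interaction called 1494 of 13358 without fast food antibiotic replicate 2 and 1851 of 13253 without those 3 libraries.

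Genes that bring cholesterol or electrons to the pathway numbered 6, all tested. In chow antibiotic against chow control livers Stard4, a cholesterol carrier, rose (1.79 ± 0.30, edgeR adjusted p = 0.000878), as did Por, the reductase that serves microsomal P450 enzymes (1.03 ± 0.15, 0.000221). Fdxr, the reductase at the head of the mitochondrial electron chain that serves CYP27A1, fell (-0.56 ± 0.17, 0.0253), a call lost without replicates 3 and 4 of chow control or replicates 1, 2 and 4 of chow antibiotic livers (up to 0.0863). Por was also called higher in antibiotic water with fast food (0.52 ± 0.15, 0.0496), which was lost without any of 14 libraries, all but number 4 of chow antibiotic and number 3 of fast food antibiotic livers (up to 0.145), and with RLE scaling, without the count filter and in a fit to the 2 groups. The meal called 0 of the 6 in either water by edgeR with all libraries or by DESeq2, with 2 at an unadjusted p under 0.05 in each water. In antibiotic water Fdxr was called higher without fast food antibiotic replicate 2 (0.55, 0.0196) and without the 3 libraries of highest acute phase level (0.51, 0.0374), and in control water a fit to the 2 groups made 1 call. The interaction called 0 of the 6 in edgeR (3 at an unadjusted p under 0.05) and 1 in DESeq2, Stard4 (-1.29, 0.0239), which edgeR also called without fast food antibiotic replicate 2 (-1.49, 0.0328).

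Among 12 regulators, both genes of the feedback receptor pair were higher in chow antibiotic than in chow control livers. Klb, which encodes β-Klotho, had 90.8, 118, 119.7 and 119 CPM in chow antibiotic livers, against 62.3, 63.2, 88.8 and 62.6 CPM in chow control livers (0.69 ± 0.17, edgeR adjusted p = 0.00699), and 67.3, 45.6, 78.2 and 81.9 CPM in fast food antibiotic livers (-0.71 ± 0.17 against chow antibiotic livers, 0.0132). Fgfr4 had 24.8, 26.9, 22.8 and 23.6 CPM in chow antibiotic livers, against 18.9, 15.9, 18.5 and 16.7 CPM in chow control livers (0.49 ± 0.16, 0.0307), a call lost without chow control replicates 2, 3 and 4 or chow antibiotic replicate 2 (up to 0.0753). Nr0b2, the corepressor SHP that FXR induces, was low and overlapped between all groups, with 9.92 ± 7.29 CPM in fast food antibiotic livers, 10.9 ± 7.2 in chow antibiotic livers, 12 ± 6.16 in fast food control livers and 15.1 ± 8.35 in chow control livers (SD, n = 4 each). Its chow antibiotic mean holds 1 library, replicate 4, at 0.284 CPM from 2 counts. Nr1h4, which encodes FXR, was between 94.4 and 193 CPM in all libraries and was not called.

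With antibiotic water after chow, 10.6% of all tested genes were called higher and 13.2% lower. In chow antibiotic against chow control livers the regulator list had 3 members higher (Klb, Fgfr4 and the coactivator gene Ppargc1a, 1.45 ± 0.37) and 3 lower. The lower ones were Nr1h3, which encodes the oxysterol receptor LXRα (-0.54 ± 0.14, edgeR adjusted p = 0.0124), and the clock genes Dbp (-1.79 ± 0.57, 0.0374) and Nr1d1 (-1.03 ± 0.34, 0.0401), both with overlapping groups. Dbp and Nr1d1 each lost the call without any of 7 libraries (adjusted p up to 0.0964 and 0.115). For Dbp these were replicates 1, 3 and 4 of chow control, 2 of fast food control and 1, 2 and 4 of chow antibiotic livers. For Nr1d1 they were replicates 1 and 4 of chow control, 4 of fast food control, 1, 2 and 4 of chow antibiotic and 3 of fast food antibiotic livers. Leaving out chow antibiotic replicate 2 or chow control replicate 4 took the list to 3 calls, and without the 3 libraries of highest acute phase level Nr1d1 was not called (0.0536). Nr5a2 (-0.031 ± 0.14) and Hnf4a (0.46 ± 0.18), activators of Cyp7a1 and Cyp8b1, were not called with all libraries. When fast food antibiotic replicate 2 was left out, Hnf4a was called higher (0.47, 0.0272), as was the clock repressor gene Nfil3 (1.22, 0.0299), and Mafg, which encodes a small MAF protein that represses bile acid synthesis genes, was called lower (-0.42, 0.0152). The same 3 were also called without the 3 libraries of highest acute phase level (0.00966, 0.0107 and 0.00421 in that order).

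For fast food against chow in antibiotic water edgeR called 1 regulator with all libraries (Klb), with 6 at an unadjusted p under 0.05, and DESeq2 called 3, adding Nfil3 (-1.68, 0.021) and Dbp (1.70, 0.0225). With fast food antibiotic replicate 2 left out, edgeR called 3042 of all 13358 genes tested, against 1800 with all libraries. Of the 12 regulators it then called 6, 3 higher and 3 lower. The higher ones were Dbp (2.01, 0.0106), Mafg (0.54, 0.00686) and Nr1h3 (0.47, 0.0214), and the lower ones Nfil3 (-2.57, 0.00179), Hnf4a (-0.60, 0.0153) and Klb (-0.57, 0.0105). The same 6 were called without the 3 libraries of highest acute phase level, where 3206 of all 13253 genes were called. A fit to the 2 groups called 0 of the 12. Antibiotic water with fast food called 0 of the 12 in edgeR, with 1 at an unadjusted p under 0.05, and DESeq2 called Ppargc1a (1.18, 0.0123). Fast food in control water called 0 in edgeR and in DESeq2, with 1 at an unadjusted p under 0.05. The interaction called 0 in edgeR, with 2 at an unadjusted p under 0.05, and 2 in DESeq2 (Klb and Nr1d1), and without fast food antibiotic replicate 2 edgeR called Nr1d1 (1.63, 0.0262).

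**Figure D4:**
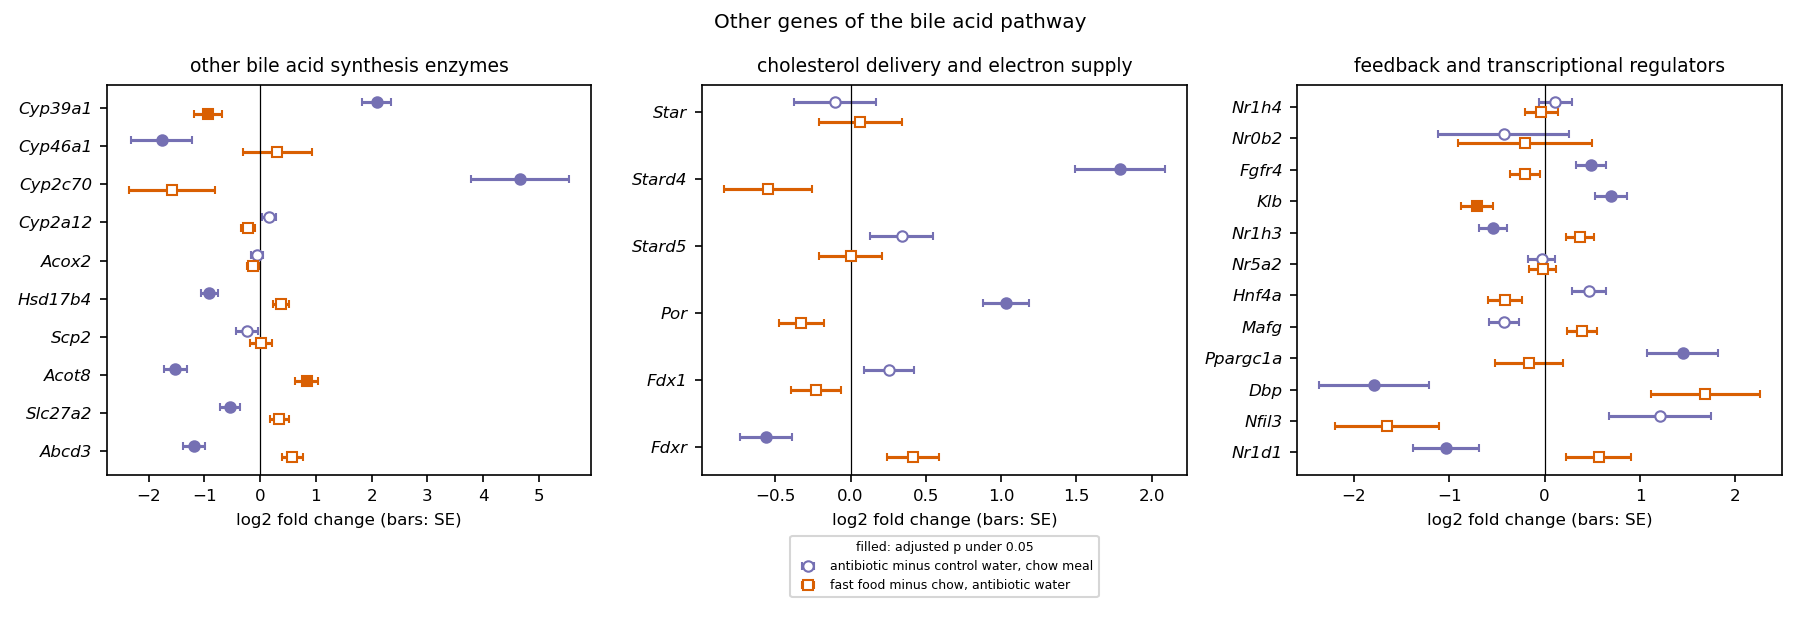
Log2 fold changes with SE (horizontal axes) of the tested genes of 3 pathway lists (rows) for antibiotic minus control water with chow (purple circles) and fast food minus chow in antibiotic water (orange squares), filled where called. Cyp2c70 (4.66) and Cyp39a1 (2.09) lie farthest to the right among the circles, and both comparisons use the chow antibiotic libraries.

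The genes most like each route enzyme were found by Pearson's r of log2 CPM over the 16 libraries, among tested genes whose mean log2 CPM was 3 or more. For Cyp7b1 they were Imp3 (0.95), Zfand2b (0.93) and Ugt2a3 (0.92), and for Cyp27a1 Polr1c (0.91), Aldh16a1 (0.89) and Dctn2 (0.88). Cyp8b1 was most like Miga2 (0.96), Cyp4a12b (0.95, one of several near-identical paralogs) and Etfdh (0.95). Cyp7a1 was most like Usp2 (0.86), Sbk1 (0.83) and Dgcr8 (0.83). Within the 10 genes the closest pairs were Cyp8b1 with Amacr (0.82), Hsd3b7 with Amacr (0.81) and Cyp7b1 with Cyp27a1, and the most opposed pair was Cyp8b1 with Baat (-0.63). These values share library depth and group structure and carry no test.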

How the data were processed

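Poly(A) RNA of mouse liver was sequenced as single 50-base reads on an Illumina HiSeq instrument from 16 TruSeq mRNA libraries, per the labels' protocols. The deposited table holds raw read counts per Ensembl gene, and the build GRCm38.p6 and the tools STAR, HTSeq, cutadapt, FastQC, edgeR and DESeq2 are listed in the submitters' processing notes, without versions or roles. Whether reads were counted by strand is not given in the sources used here. Of the 25006 gene identifiers, 24942 were matched to a symbol in GENCODE M21, which also gave coordinates and exon lengths on GRCm38. Column names matched the sample descriptions for all 16 libraries, and no 2 libraries of the same group agreed within sampling noise. Libraries of different groups were not compared in this way.

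The deposited counts were fitted in edgeR 4.0.16 (R 4.3.3) with TMM scaling, filterByExpr (minimum count of 10, leaving 13180 genes), 4 group means and the robust quasi-likelihood F test, two-sided. P-values were adjusted by Benjamini-Hochberg over all genes tested, with a threshold of 0.05. The SE of a log2 fold change is its size divided by the square root of F, and the common biological coefficient of variation was 0.222. Log2 CPM used a prior count of 2. The pipeline was tested on simulated counts. Depth limits precision for genes with few counts, such as Cyp46a1 and Nr0b2.

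The 10 genes and the lists were chosen with earlier results of these data known. The genes named are all 10, each gene of the 3 pathway lists called in a comparison, Nr0b2, Nr1h4, Fgfr4 and Klb always, and the 3 genes most like each of the 4 route enzymes. Acox2, Scp2, Nr5a2, Hnf4a, Mafg and Nfil3 are named outside that rule, after their values were seen. Among the pathway lists, Ch25h did not pass the filter. The hepatocyte marker written as Tf was not matched by symbol and was left out. Alternatives were DESeq2 1.42.0, RLE factors, other filters, a fit to the compared groups, a replicate block, leaving out libraries, and the share of rRNA-like features (Lars2, Mir6236, Gm20594 and Mir6240). The runs within libraries of low or high share were chosen after seeing the data. Promoter windows came from RefSeq.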

Additional observations from a re-analysis of the deposited data

Results flagged for a closer look

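In fast food antibiotic livers the balance of classical over alternative route genes was -2.39 in replicate 2 on the log2 scale, against 0.83, 1.19 and 1.09 in replicates 1, 3 and 4. Its gap to the nearest of the others was 0.901 of the group's range, above Dixon's critical value for 4 libraries. Such gaps were looked for in 44 groups of values, and chance gives one in about 1 of 20. The same library had 21 CPM of Cyp8b1 and the highest summed acute phase transcripts of its group (49313 CPM).

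The effect of fast food against chow differed between antibiotic and control water for 3 of the 10 genes, by the interaction test of edgeR. For Cyp7b1 the difference of the log2 effects was -3.15 (adjusted p = 0.00199), from -2.16 in antibiotic water and 1.00 in control water. For Cyp27a1 it was -0.94 (adjusted p = 0.0231), from -0.68 in antibiotic water and 0.26 in control water. Slc27a5 had -1.02 (adjusted p = 0.00934), from -0.33 in antibiotic water and 0.69 in control water. Groups without overlap lay behind both meal effects for Cyp7b1 and Slc27a5. For Slc27a5 in antibiotic water the gap was narrow, from 1048 CPM in a fast food library to 1051 CPM in a chow library.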

How the results depend on the processing

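Of the log2 fold changes of the 10 genes, 413 of 480 under other settings and 719 of 800 with 1 library left out kept both direction and side of the threshold. For each count of the 10 genes called, the cause of a change with setting was not tested. For fast food against chow in control water the count was 1, DESeq2 gave 3, a fit to the 2 groups 2, and the rRNA-like share as a covariate or as a split term 0, with 0 to 1 when a library was left out. In antibiotic water the count was 4, a fit to the 2 groups gave 1 and high-share libraries alone 0, with 3 to 5 when a library was left out. For antibiotic against control water with chow it was 6, with 0 in high-share libraries alone (2 against 2) and 5 to 7 when a library was left out. With fast food it was 2, with 1 without the count filter, 0 with the covariate or the split, and 0 to 3 when a library was left out. The interaction had 3, with 6 without the 3 libraries of high acute phase transcripts and 2 to 6 when a library was left out. A change of the balance of the routes kept its sign when a library was left out for antibiotic against control water with chow (-2.54 to -1.67), for fast food in antibiotic water (1.68 to 3.04) and for their interaction (1.5 to 2.86), but not for fast food in control water (-0.13 to 0.50) or the water with fast food (-0.51 to 0.69).

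Signs that turned were all of fold changes that were not called. Cyp7a1 for fast food in antibiotic water gave 0.50 with the replicate block, 0.21 with the covariate, 0.31 with the split and 0.61 in high-share libraries, and -0.57 to 0.74 when a library was left out. For the water with fast food it gave 0.059 with the block, 0.27 without the 3 acute phase libraries, 0.41 with the covariate, 0.80 with the split, and -0.45 to 0.28. Cyp8b1 gave 0.0037 for the water with fast food without those 3 libraries, -0.64 to 0.019 when a library was left out, and -0.18 to 0.19 for fast food in control water. Hsd3b7 gave -0.046 for fast food in control water in low-share libraries, -0.10 for fast food in antibiotic water in high-share libraries, and -0.035 to 0.21 when a library was left out. Its interaction was 0.087 without the 3 libraries, 0.095 with the covariate, 0.15 with the split, and -0.17 to 0.070 when a library was left out. Akr1d1 for fast food in antibiotic water gave -0.24 to 0.039, and the interaction of Akr1c6 0.16 with the split.

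Same-numbered libraries did not deviate together (correlations of -0.222 to 0.191), and the replicate block gave counts of 1, 4, 5, 2 and 3 in the order above; Cyp8b1 for the water with chow then had an adjusted p of 0.0572. Among all genes the call counts for fast food in control water were 76, and 305 with DESeq2, 365 with 2 groups, 154 in low-share libraries, 21 and 17 with the covariate and the split, and 160 without the 3 libraries. For fast food in antibiotic water they were 1800, and 229 with 2 groups, 1 in high-share libraries and 3206 without the 3 libraries, and for the water with chow 3138, and 3 in high-share libraries. With fast food the water gave 790, and 1547 with DESeq2, and the interaction 519, and 1120 with DESeq2, 183 and 262 with the covariate and the split, and 1851 without the 3 libraries.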

Other observations

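Fast food antibiotic replicate 2 was unlike the other 3 libraries of its group for several bile acid enzymes and like them for others. It had 21 CPM of Cyp8b1, against 344 to 548 CPM in the other 3, and chow antibiotic livers had 53.2 to 140.2 CPM. Its level of Cyp2c70 was 1287 CPM, against 52.4 to 133 CPM in the other 3, and chow antibiotic livers had 960.3 to 1486 CPM. Cyp39a1 was at 263 CPM, against 92.8 to 106 CPM in the other 3. Cyp7b1, which was highest in chow antibiotic livers, was at 106 CPM in that library and at 119 to 157 CPM in the other 3, below every chow antibiotic library.

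Cyp2c70 had a larger fold change than any of the 10 enzymes described above between chow antibiotic livers (1486, 1135, 1085 and 960.3 CPM) and chow control livers (35.6, 53.6, 45 and 50.2 CPM). Ppargc1a, a coactivator gene of the fasting response, did not overlap between the waters with either meal. Its fold change for antibiotic against control water was 1.18 ± 0.36 with fast food (edgeR adjusted p = 0.0661, not called, and 0.0123 in DESeq2) and 1.45 ± 0.37 with chow (0.0117, called).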
